A study of Homo sapiens with 12 samples.

Results

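The genes described here are 10 genes of the integrated stress response that centre on the transcription factor ATF4: ATF4 itself, DDIT3, CEBPB, TRIB3, SESN2, DDIT4, CHAC1, ASNS, PSAT1 and PHGDH. They were chosen by name. Each has 1 row of exactly that name among the 23621 gene rows of the expression tables of both cell lines, and all 10 were among the 14251 active genes, those with an FPKM (a read count scaled for transcript length and library size) above 1 in at least 1 of the 12 libraries.

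The study asked how transcription in ovarian cancer cells responds to THZ1, a covalent inhibitor of the transcriptional kinases CDK7, CDK12 and CDK13. KURAMOCHI (Ku) and COV362 (Cov), both established human ovarian cancer cell lines labelled as untransduced, were exposed for 6 hr to the vehicle DMSO, to 50 nM THZ1 or to 250 nM THZ1, with 2 replicates per line and condition described as biological. Ku cells were grown in RPMI and Cov cells in DMEM, so line and medium cannot be told apart. Polyadenylated RNA was sequenced after ERCC RNAs, synthetic transcripts of known amount, had been mixed into RNA samples normalized by cell count.

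In the integrated stress response, a small family of kinases senses amino acid shortage, unfolded protein in the endoplasmic reticulum, heme shortage or double-stranded RNA and phosphorylates the translation initiation factor eIF2. General translation then falls, while translation of ATF4 mRNA rises because of short open reading frames ahead of its coding sequence, and ATF4 protein, often paired with C/EBP proteins, switches on genes of amino acid synthesis and transport, of redox balance, of feedback control and, when stress persists, of cell death. ATF4 activity is therefore set largely by translation, which the mRNA levels reported here do not measure.

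The libraries and their comparison need a short account. The deposited FPKM were scaled to the ERCC RNAs, and their sum over all genes ranged from 607016 to 1234308 in Ku libraries and from 758681 to 1686567 in Cov libraries. The tables hold no zeros, since 4896 to 5284 rows of each library carry the same low value (its floor), which was 0.0783 to 0.119 FPKM and is not the minimum, since other rows lie below it in most libraries. Read depth is unknown. Between replicates, Pearson's r over active genes was 0.968 to 0.983. Log2 fold changes are differences between groups in the mean of log2(FPKM + 1), which understates changes of low genes. They were tested with limma within each line, with Benjamini-Hochberg adjustment of p-values across the 14251 active genes. Called lower or higher means that the adjusted p was under 0.001 with a log2 fold change larger than 0.5 in size, and only called genes are said to have fallen or risen. An exact permutation test of 2 libraries against 2 cannot give a p below 0.33, so the calls rest on the spread pooled across genes. The tables of the lines were normalized separately, and no difference between lines was tested.

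Ovarian epithelial markers were present in the DMSO libraries. Of 14 such markers, 12 in Ku cells and 13 in Cov cells had a mean above 1 FPKM. PAX8, a transcription factor of the Müllerian lineage, was at 140 and 132 FPKM in Ku cells and at 120 and 128 FPKM in Cov cells. WT1 was at 60.1 and 53.4 FPKM in Ku cells and at 0.565 and 0.741 FPKM in Cov cells. In Ku cells MUC16 was at 0.172 and 0.159 FPKM and CDH1 at 0.559 and 0.377 FPKM. Of the immune markers 2 of 10 in Ku cells and 1 of 10 in Cov cells were above 1 FPKM, with PTPRC at no more than 0.299 FPKM and CD68 highest, at 2.84 and 1.77 FPKM in Ku and 3.71 and 4.53 FPKM in Cov cells. Of the fibroblast markers 2 of 8 were above 1 FPKM in each line, and the highest were COL3A1 in Ku cells (9.43 and 7.74 FPKM) and COL1A2 in Cov cells (40.4 and 44.1 FPKM). Endothelial markers above 1 FPKM were 4 of 6 in Ku cells and 2 of 6 in Cov cells, among them CDH5 at 8.67 and 7.79 FPKM in Ku cells and 7.5 and 8 FPKM in Cov cells, while PECAM1 was at no more than 0.378 FPKM. Summed over each list, epithelial markers ranged from 4910 to 5150 FPKM in Ku DMSO libraries and from 2290 to 2410 FPKM at 250 nM, and from 4140 to 4610 FPKM and from 1940 to 2230 FPKM in Cov cells. Their sums were thus lower at 250 nM than in DMSO, as were those of the other marker lists, and their part in the results was not tested.

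At 250 nM all 10 genes fell in both lines, beside shares of active genes called lower of 68.6% (Ku) and 84% (Cov). Among genes above 10 FPKM in at least 1 library, 9 of 9 members fell, beside larger shares of 82.5% (Ku) and 94% (Cov). The medians of these 9 were -2.08 (Ku) and -2.46 (Cov), against -1.29 and -1.50 for all genes above 10 FPKM. At 50 nM, 10 of 10 fell in Cov cells beside a background of 70.5%, and 4 of 10 (ATF4, DDIT3, CHAC1 and CEBPB) fell in Ku cells beside a background of 11.3%. With a looser adjusted p under 0.05 the counts at 50 nM were 10 of 10 (Cov) and 6 of 10 (Ku), beside 82% and 40.2%. No member was called higher against DMSO, beside 0.0842% and 0.0491% of active genes at 50 nM and 250 nM in Ku cells and 0.0772% and 0.105% in Cov cells, and none was higher at an unadjusted limma p under 0.05. Both THZ1 libraries lay below both DMSO libraries for 9 of 10 members at 50 nM in Ku cells and for all 10 in the other 3 comparisons, beside 75.8% and 95.9% of active genes at 50 nM and 250 nM in Ku cells and 95.7% and 95.6% in Cov cells. The 10 genes had in Ku cells a median log2 fold change of -0.72 at the lower and -2.16 at the higher dose, against -0.40 and -1.11 for all active genes. In Cov cells the medians were -1.14 and -2.36, against -0.85 and -1.31. The members did not move as a unit: at 250 nM their log2 fold changes ran from -4.29 (CEBPB) to -0.68 (PSAT1) in Ku cells and from -4.26 (DDIT3) to -1.08 (PHGDH) in Cov cells. RNA was normalized by cell count, but in bulk RNA fewer cells that express a gene and less of its mRNA per cell cannot be told apart. Without any 1 of the 6 Ku libraries, 0 of 10 members were called at 50 nM in Ku cells, and the share of active genes called lower went down from 11.3% to between 0.0421% and 1.01%, so that calls were lost across all genes.

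The zero of this scale is set by the ERCC RNAs. The median of active genes lay below 0 in every comparison with DMSO, and scaling each library to an equal median FPKM of active genes or by the median of ratios to a reference library moved it to between 0.10 and 0.31 and to between 0.00 and 0.02. At 250 nM the median of the 10 genes moved to -1.03 (Ku) and -0.76 (Cov) under the first and to -1.33 and -1.12 under the second. Falls are therefore given on the spike-in scale, and members whose direction turns under another scaling are named as such. With the added 1 FPKM, another scaling moves the log2 fold changes of genes at low FPKM by less than those of abundant genes.

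**Figure D1:**
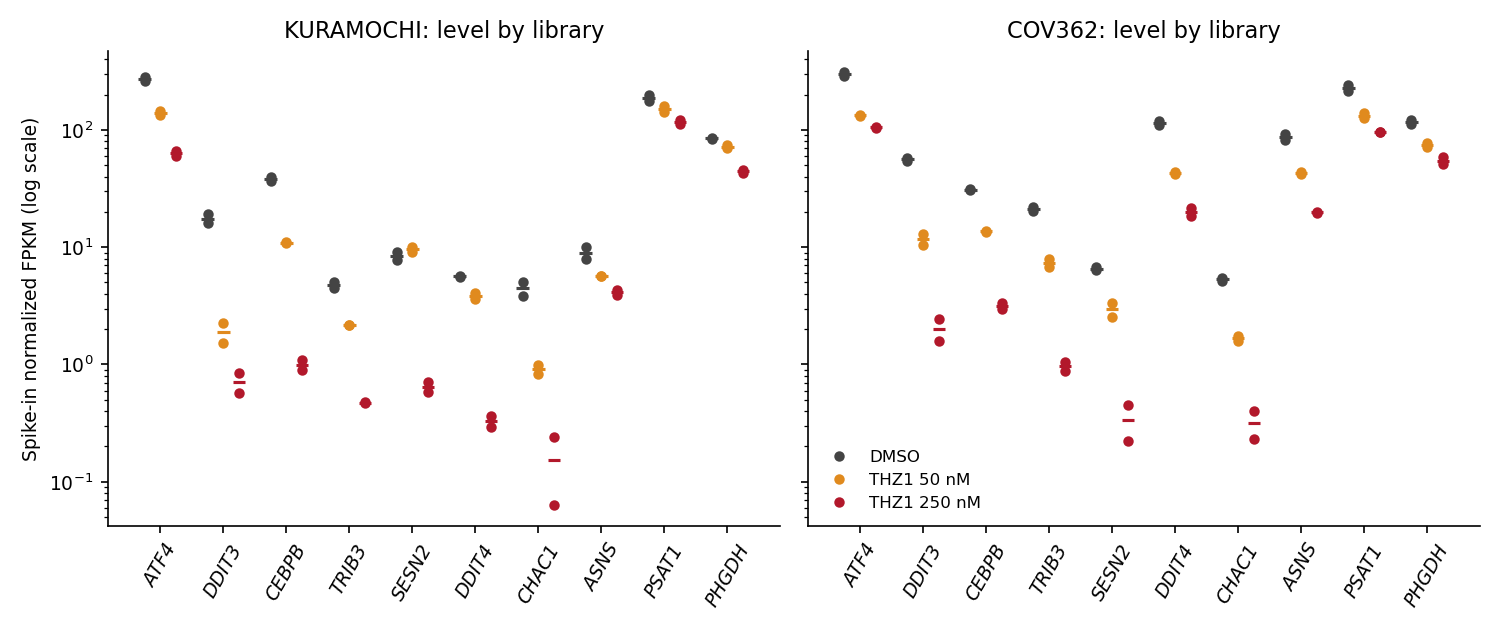
Spike-in normalized FPKM of the 10 genes (log axis) in every library of KURAMOCHI (left) and COV362 (right); points are libraries, short lines are means of 2, grey is DMSO, orange 50 nM and red 250 nM THZ1. In Ku cells all members except SESN2, and in Cov cells all 10, show the DMSO libraries highest, the 50 nM libraries between and the 250 nM libraries lowest, without overlap.

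ATF4 was the most abundant of the 10 mRNAs in DMSO in both lines and fell at each dose. The gene (ENSG00000128272, protein-coding) lies at chr22:39915700-39918688 on the plus strand of GRCh37, and 4 annotated ATF4 pseudogenes elsewhere could share reads with it. In Ku cells it was at 282 and 260 FPKM in DMSO, 144 and 134 FPKM at 50 nM and 60.3 and 66.4 FPKM at 250 nM. No library of a higher dose overlapped those of a lower dose. The log2 fold change was -0.96 (SE 0.0784, adjusted p 0.000457) at 50 nM and -2.08 (SE 0.0784, adjusted p 7.77e-06) at 250 nM, leaving 51.2% and 23.4% of the mean DMSO FPKM. The 50 nM call in Ku cells was lost without the trend (adjusted p 0.00115), without a minimum FPKM (0.00272) and with only the compared groups in the fit (0.00135). Cov libraries held 288 and 309 FPKM in DMSO, 131 and 135 FPKM at 50 nM and 106 and 104 FPKM at 250 nM, again without overlap. The change was -1.16 (SE 0.0785, adjusted p 2.53e-05) at 50 nM and -1.50 (SE 0.0785, adjusted p 1.92e-06) at 250 nM, with 44.5% and 35.2% of DMSO left. Most of the fall in Cov cells was thus present at 50 nM. Against the median of active genes, ATF4 differed by -0.97 in Ku cells and by -0.19 in Cov cells at 250 nM. In Ku cells 15.3% of active genes had a lower log2 fold change, called or not, and in Cov cells 40%. The fall in Cov cells turned to 0.57 under equal median scaling, where ATF4 was called higher, and to 0.11, not called, under median-of-ratios scaling. In Ku cells it was -0.11, not called, and -0.63, called lower, under the same scalings.

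DDIT3 and CEBPB encode bZIP transcription factors, DDIT3 (CHOP) the stress-induced factor tied to cell death under lasting stress and CEBPB a C/EBP partner of ATF4. By log2 fold change of FPKM + 1 at 250 nM, they showed the deepest falls among the members in Ku cells, and DDIT3 the deepest in Cov cells. DDIT3 (ENSG00000175197) lies at chr12:57910371-57915520 on the minus strand of GRCh37, and CEBPB (ENSG00000172216) at chr20:48807367-48809205 on the plus strand. DDIT3 was at 19 and 16 FPKM in Ku DMSO libraries, at 1.52 and 2.26 FPKM at 50 nM and at 0.574 and 0.851 FPKM at 250 nM. Its log2 fold change in Ku cells was -2.68 (SE 0.185, adjusted p 0.000341) at 50 nM and -3.43 (SE 0.185, adjusted p 1.6e-05) at 250 nM, so that 10.8% and 4.07% of DMSO FPKM remained. The groups were far apart, and the lower dose held most of the change. In Cov cells DDIT3 went from 54.3 and 58 FPKM in DMSO to 12.9 and 10.5 FPKM at 50 nM and to 2.43 and 1.58 FPKM at 250 nM. The log2 fold changes were -2.18 (SE 0.16, adjusted p 2.96e-05) and -4.26 (SE 0.16, adjusted p 9.04e-07), leaving 20.8% and 3.57%. At 250 nM the share of active genes with a lower log2 fold change than DDIT3 was 1.74% (Ku) and 0.281% (Cov). It stayed called lower at 250 nM under both other scalings, at -2.06 and -2.43 in Ku cells and -2.48 and -2.88 in Cov cells.

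DDIT3 overlaps MARS1 (listed as MARS) and MBD6 on the opposite strand, and on its own strand the microRNA gene MIR616 and a protein-coding gene (ENSG00000285133), neither of which has a row under these names. The strand setting of the authors' counting is not given in the sources used here. At 250 nM MARS changed by -0.95 (Ku) and -1.63 (Cov) and MBD6 by -1.64 and -1.95, all called lower and all smaller falls than that of DDIT3. Under equal median scaling MARS was at 1.00, called higher, in Ku cells and at 0.42, not called, in Cov cells. MBD6 was then at 0.07 and -0.12, not called. With median-of-ratios scaling MARS was at 0.48 and -0.04 and MBD6 at -0.39 and -0.53, none of them called. A share of their reads in the DDIT3 value was not tested.

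CEBPB fell in 2 large steps. Ku DMSO libraries held 39.5 and 36.7 FPKM, those at 50 nM 10.8 and 11 FPKM, and those at 250 nM 0.892 and 1.1 FPKM. Its log2 fold change of -1.72 (SE 0.112, adjusted p 0.00031) at 50 nM became -4.29 (SE 0.112, adjusted p 6.52e-06) at 250 nM, with 28.6% and 2.62% of DMSO FPKM left. Only 0.519% of active genes had a lower log2 fold change at the higher dose. Cov cells had 31.1 and 30.8 FPKM in DMSO, 13.7 and 13.5 FPKM at 50 nM and 2.96 and 3.37 FPKM at 250 nM. There the changes were -1.13 (SE 0.0926, adjusted p 4.1e-05) and -2.94 (SE 0.0926, adjusted p 8.16e-07), and 10.2% of DMSO FPKM remained at 250 nM. The 3 conditions were cleanly separated in both lines. At 250 nM CEBPB was called lower under both other scalings in both lines, whereas at 50 nM in Cov cells it turned to 0.04 under equal median scaling. An antisense transcript, CEBPB-AS1, overlaps the gene on the opposite strand.

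**Figure D2:**
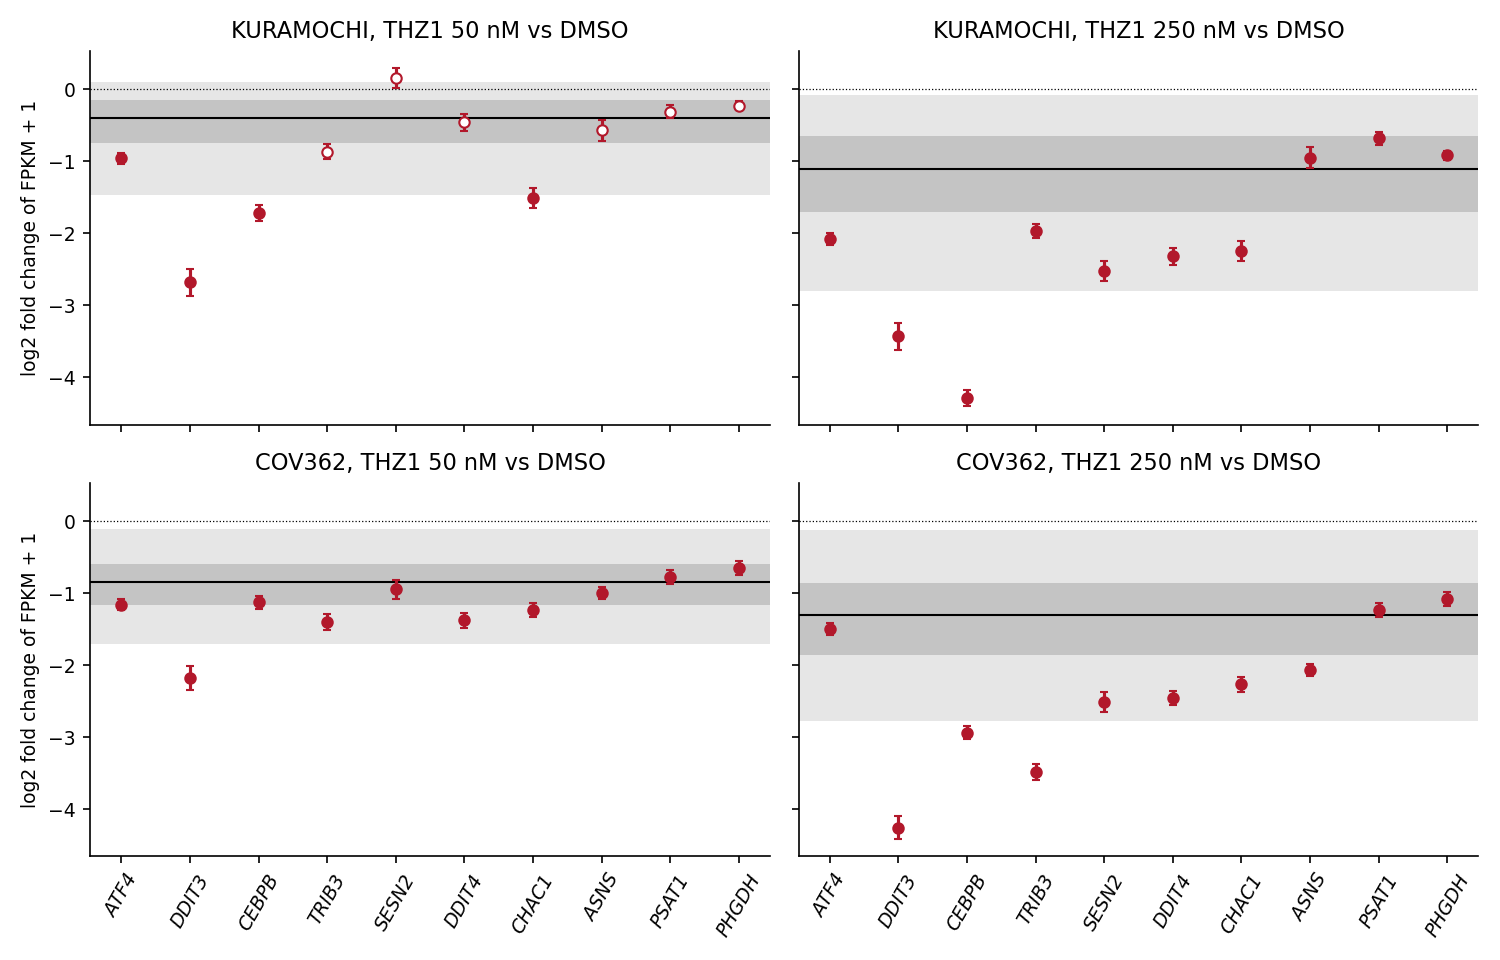
Log2 fold change of FPKM + 1 against DMSO for each gene (points, bars are standard errors, n = 2 per group) at 50 nM (left) and 250 nM (right) in KURAMOCHI (top) and COV362 (bottom), on the spike-in scale; filled points were called lower, open points were not called. The line is the median of 14251 active genes, the dark band their 25th to 75th and the light band their 5th to 95th percentile; PSAT1 and PHGDH lie above the median in all 4 panels, and on the other scalings their direction at 250 nM turns.

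Among the enzymes of amino acid synthesis, the serine pathway genes PSAT1 and PHGDH fell least of the 10 at 250 nM in Cov cells and, with ASNS, least in Ku cells. ASNS makes asparagine, PHGDH performs the first step of serine synthesis from glycolysis and PSAT1 the next. At 250 nM in Ku cells all 3 turned upward under both other scalings, as PSAT1 and PHGDH did in Cov cells. A short stretch of the ASNS and CHAC1 promoters is shown because ASNS is a textbook ATF4 target through the element it holds.

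ASNS (ENSG00000070669) lies at chr7:97480989-97501854 on the minus strand of GRCh37, with annotated pseudogenes elsewhere that could share reads. The C/EBP-ATF response element, a site for ATF4 paired with a C/EBP protein, was searched on both strands as TGATGNAA in the 250 bases before each annotated start (RefSeq, GRCh38.p14). It occurs in 3.14% of 35116 such windows, and in 2 of the 16 windows of the 10 genes, those of ASNS and CHAC1. The 48 bases around the match are printed 5′ to 3′ on the strand of the gene, with the match in capitals. The ASNS match begins 68 bases before the start, on the strand of the gene, and the run spans chr7:97872449-97872496, minus strand. The CHAC1 match begins 209 bases before the start, on the opposite strand, and the run spans chr15:40953242-40953289, plus strand.
ASNS: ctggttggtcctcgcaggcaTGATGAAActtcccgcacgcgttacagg
CHAC1: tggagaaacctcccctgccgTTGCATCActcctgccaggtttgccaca
The cAMP response element TGACGTCA is in 1.65% of all windows and in no window of the 10 genes. The inverted CCAAT box ATTGG is in 32% of windows and in 8 of the 16 windows of the 10 genes, which belong to 7 genes (DDIT3, CHAC1, PSAT1, PHGDH, SESN2, DDIT4 and CEBPB). These matches are descriptions of the letters and do not show that a factor is bound, and sites outside the windows were not searched.

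ASNS differed between the lines in level. Ku libraries were at 9.96 and 7.93 FPKM in DMSO, 5.64 and 5.72 FPKM at 50 nM and 4.31 and 3.93 FPKM at 250 nM. The log2 fold change in Ku cells was -0.57 (SE 0.144, adjusted p 0.0179, not called) at 50 nM and -0.95 (SE 0.144, adjusted p 0.000909, called lower) at 250 nM. This call was lost with only the compared groups in the fit (adjusted p 0.00239), without a minimum FPKM (adjusted p 0.00179) and with a replicate block (adjusted p 0.00148), and the value turned to 0.76 and 0.30 under the equal median and median-of-ratios scalings. It was also lost without 5 of the 6 Ku libraries in turn, all except replicate 2 of DMSO, with adjusted p of 0.00248 to 0.00892. Cov libraries were at 81.6 and 91.6 FPKM in DMSO, 41.7 and 43.8 FPKM at 50 nM and 19.9 and 19.7 FPKM at 250 nM, a level well above that of Ku cells, although the tables were normalized separately. The changes were -1.0 (SE 0.0884, adjusted p 5.2e-05) and -2.07 (SE 0.0884, adjusted p 1.06e-06), leaving 49.4% and 22.9% of DMSO FPKM. The 250 nM call in Cov cells was lost under both other scalings, at -0.05 (equal median) and -0.50 (median-of-ratios). Against the median of active genes ASNS at 250 nM was 0.16 above it in Ku cells and 0.76 below it in Cov cells.

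PSAT1 (ENSG00000135069, chr9:80912041-80945009, plus strand, GRCh37, with 4 annotated pseudogenes elsewhere) was next to ATF4 in abundance in DMSO. In Ku cells its values were 200 and 177 FPKM in DMSO, 161 and 142 FPKM at 50 nM and 122 and 113 FPKM at 250 nM. The groups did not overlap, with a log2 fold change of -0.31 (SE 0.0922, adjusted p 0.0293, not called) at 50 nM and -0.68 (SE 0.0922, adjusted p 0.00055, called lower) at 250 nM. In Cov cells PSAT1 was at 213 and 240 FPKM in DMSO, 125 and 139 FPKM at 50 nM and 95.5 and 95 FPKM at 250 nM. The changes were -0.78 (SE 0.0946, adjusted p 0.000187) and -1.24 (SE 0.0946, adjusted p 9.71e-06). At 250 nM PSAT1 kept 62.1% of its DMSO FPKM in Ku and 42% in Cov cells. It was 0.43 and 0.07 above the median of active genes, and 73.4% and 53.7% of active genes had a lower log2 fold change, called or not. The 250 nM call in Ku cells was lost without either DMSO or either 250 nM library (adjusted p of 0.00117 to 0.00423), without a minimum FPKM (0.00187) and without the trend (0.00165), and the 50 nM call in Cov cells without replicate 2 of DMSO (0.00134) or replicate 1 at 50 nM (0.00105). Under equal median scaling PSAT1 was called higher at 250 nM in both lines, at 1.29 in Ku cells and 0.82 in Cov cells.

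PHGDH (ENSG00000092621, chr1:120191034-120286841, plus strand, GRCh37) followed the same course. Its Ku libraries stood at 86 and 83.6 FPKM in DMSO, 74.1 and 69.9 FPKM at 50 nM and 45.3 and 43.2 FPKM at 250 nM. The log2 fold change was -0.23 (SE 0.0627, adjusted p 0.022, not called) at 50 nM and -0.92 (SE 0.0627, adjusted p 3.16e-05, called lower) at 250 nM. Its Cov libraries stood at 112 and 121 FPKM in DMSO, 76.6 and 71.1 FPKM at 50 nM and 51 and 58.2 FPKM at 250 nM, again in separate ranges. The changes were -0.65 (SE 0.0971, adjusted p 0.000502) and -1.08 (SE 0.0971, adjusted p 2.23e-05), and the call at 50 nM was lost with a replicate block (adjusted p 0.00195) and without either DMSO or either 50 nM library (adjusted p of 0.00116 to 0.00408). At 250 nM 52.2% of DMSO FPKM remained in Ku cells and 46.9% in Cov cells. Equal median scaling turned the 250 nM values to 1.03 and 0.97, called higher, and median-of-ratios scaling to 0.51 in each line, not called.

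CHAC1 breaks down glutathione and is among the genes most closely tied to ATF4 and DDIT3. It had the lowest mean of the 10 in every group, with libraries that overlapped those of TRIB3 in Ku DMSO and those of SESN2 in Cov cells at 250 nM, and it fell in both lines. The gene (ENSG00000128965) lies at chr15:41245160-41248710 on the plus strand of GRCh37. Ku DMSO libraries had 5.03 and 3.87 FPKM, those at 50 nM 0.832 and 0.981 FPKM, and those at 250 nM 0.0638 and 0.243 FPKM. At 250 nM the value of replicate 1 lies below the floor of its library (0.0783 FPKM), so the ratio to DMSO is not given. The log2 fold change on FPKM + 1 was -1.51 (SE 0.139, adjusted p 0.000601) at 50 nM and -2.24 (SE 0.139, adjusted p 2.39e-05) at 250 nM. In Cov cells CHAC1 was at 5.17 and 5.5 FPKM in DMSO, 1.6 and 1.75 FPKM at 50 nM and 0.233 and 0.4 FPKM at 250 nM. Its changes were -1.24 (SE 0.0987, adjusted p 3.69e-05) and -2.27 (SE 0.0987, adjusted p 1.09e-06). The conditions did not overlap. At 250 nM CHAC1 was called lower under both other scalings in both lines, at -1.37 and -1.59 in Ku cells and -1.11 and -1.36 in Cov cells. The call at 50 nM in Ku cells was lost with a pseudocount of 0.1 (adjusted p 0.00288) and with a replicate block (adjusted p 0.00153). It was also lost without the trend (0.00108), without a minimum FPKM (0.00442) and with only the compared groups in the fit (0.00188).

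TRIB3, a pseudokinase induced by ATF4 and DDIT3 that feeds back on ATF4, fell in Cov cells at both doses and in Ku cells at 250 nM. It lies at chr20:343479-378203 on the plus strand of GRCh37 (ENSG00000101255). The Ku values were 5.04 and 4.5 FPKM in DMSO, 2.15 and 2.15 FPKM at 50 nM and 0.469 and 0.479 FPKM at 250 nM. At 50 nM the log2 fold change of -0.87 (SE 0.103, adjusted p 0.00125) missed the threshold although the groups were apart, and at 250 nM it was -1.97 (SE 0.103, adjusted p 1.51e-05). The Cov values were 20.4 and 21.8 FPKM in DMSO, 6.79 and 7.96 FPKM at 50 nM and 0.88 and 1.05 FPKM at 250 nM. The changes were -1.40 (SE 0.113, adjusted p 3.85e-05) and -3.49 (SE 0.113, adjusted p 8.16e-07). At 250 nM TRIB3 kept 9.94% of its DMSO FPKM in Ku and 4.57% in Cov cells, and 17.9% and 0.961% of active genes had a lower log2 fold change. It was called lower at 250 nM under both other scalings, at -0.83 and -1.13 in Ku cells and -1.91 and -2.26 in Cov cells.

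SESN2 and DDIT4 (REDD1) restrain mTORC1, SESN2 as a leucine sensor and DDIT4 through the TSC complex. SESN2 was the only member whose 50 nM libraries in Ku cells overlapped DMSO. It lies at chr1:28586029-28609002 on the plus strand of GRCh37 (ENSG00000130766). Ku libraries were at 9.06 and 7.83 FPKM in DMSO, 9.04 and 10.1 FPKM at 50 nM and 0.579 and 0.704 FPKM at 250 nM. The log2 fold change was 0.16 (SE 0.138, adjusted p 0.353, not called) at 50 nM, where 96.4% of active genes had a lower log2 fold change, and -2.52 (SE 0.138, adjusted p 1.66e-05) at 250 nM. Nearly the whole change in Ku cells thus lay between the doses, with -2.68 (SE 0.138, adjusted p 5.67e-05) from 50 nM to 250 nM. In Cov cells SESN2 was at 6.38 and 6.75 FPKM in DMSO, 2.53 and 3.37 FPKM at 50 nM and 0.222 and 0.45 FPKM at 250 nM. Here the change was -0.95 (SE 0.137, adjusted p 0.000435) at 50 nM and -2.51 (SE 0.137, adjusted p 2.27e-06) at 250 nM. The 50 nM call in Cov cells was lost with a pseudocount of 0.1 (adjusted p 0.00366), without a minimum FPKM (0.00199) and without either DMSO library (adjusted p 0.00238 and 0.00377), and turned to 0.04 under equal median scaling. At 250 nM SESN2 was called lower under both other scalings in both lines, and 7.59% and 5.12% of DMSO FPKM remained in Ku and Cov cells.

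DDIT4 (ENSG00000168209, chr10:74033678-74035794, plus strand, GRCh37) was another gene whose level differed widely between the separately normalized tables. The Ku libraries held 5.73 and 5.53 FPKM in DMSO, 4.07 and 3.6 FPKM at 50 nM and 0.292 and 0.364 FPKM at 250 nM. At 50 nM the log2 fold change was -0.46 (SE 0.115, adjusted p 0.0176, not called), which turned to 0.11 under equal median scaling, and at 250 nM it was -2.32 (SE 0.115, adjusted p 1.33e-05). The Cov libraries held 110 and 118 FPKM in DMSO, 42.4 and 44 FPKM at 50 nM and 18.3 and 21.7 FPKM at 250 nM. The changes there were -1.38 (SE 0.101, adjusted p 2.92e-05) and -2.46 (SE 0.101, adjusted p 9.96e-07). The log2 falls at 250 nM were similar in size, but 5.83% of DMSO FPKM remained in Ku cells and 17.5% in Cov cells, since the added 1 FPKM weighs more at the low Ku level. DDIT4 at 250 nM was called lower under both other scalings in Ku cells, and in Cov cells at -0.88 under median-of-ratios but not at -0.43 under equal median scaling.

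Set side by side per length of transcript, the DMSO levels covered a wide range. In Ku cells the order of mean FPKM was ATF4 (271), PSAT1 (188.5), PHGDH (84.8), CEBPB (38.1), DDIT3 (17.5), ASNS (8.94), SESN2 (8.44), DDIT4 (5.63), TRIB3 (4.77) and CHAC1 (4.45). The libraries of ASNS and SESN2 overlapped, as did those of TRIB3 and CHAC1. In Cov cells it was ATF4 (298), PSAT1 (226.8), PHGDH (116.4), DDIT4 (114.2), ASNS (86.6), DDIT3 (56.2), CEBPB (30.9), TRIB3 (21.1), SESN2 (6.57) and CHAC1 (5.34), with PHGDH and DDIT4 overlapping. ATF4, PSAT1 and PHGDH thus led in both lines, and CHAC1 had the lowest mean in both. In Ku cells the mean of PSAT1 was above that of ATF4 at 50 nM (151.4 and 138.9 FPKM, with overlapping libraries) and at 250 nM (117.1 and 63.4 FPKM, without overlap), while in Cov cells ATF4 (104.8 FPKM) was above PSAT1 (95.2 FPKM) at 250 nM.

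The step from 50 nM to 250 nM was tested on its own. It shares the 50 nM and 250 nM libraries with the comparisons above. All 10 members had both 250 nM libraries below both 50 nM libraries in each line, beside 87.7% (Ku) and 75.6% (Cov) of active genes. No member was called higher at this step, beside 0.0421% (Ku) and 0.0842% (Cov). In Ku cells 6 of 10 members fell further (ATF4, TRIB3, PHGDH, SESN2, DDIT4 and CEBPB) beside 36% of active genes, with a median of -0.92 against -0.62. In Cov cells 7 of 10 (all except ATF4, PSAT1 and PHGDH) fell further beside 24.4%, with a median of -1.08 against -0.41. CEBPB had a step of -2.58 (SE 0.112, adjusted p 4.69e-05) in Ku cells and -1.81 (SE 0.0926, adjusted p 3.65e-05) in Cov cells. TRIB3 had -1.10 (SE 0.103, adjusted p 0.000252) and -2.09 (SE 0.113, adjusted p 3.76e-05). ATF4 stepped by -1.12 (SE 0.0784, adjusted p 0.000109) in Ku cells and by -0.34 (SE 0.0785, adjusted p 0.00831, not called) in Cov cells, and the values turned to 0.14 and 0.51 under equal median scaling. The count in Ku cells went down to 3 of 10 without replicate 1 at 50 nM, 2 of 10 without replicate 1 at 250 nM and 3 of 10 without replicate 2 at 250 nM, while the share of active genes went down from 36% to 6.39%, 5.77% and 7.72%, and the lost calls were among those of ATF4, TRIB3, PHGDH and DDIT4 (adjusted p of 0.00108 to 0.00366). In Cov cells the call of CHAC1 was lost without replicate 1 at 250 nM (adjusted p 0.00125). The 3 conditions were ranked DMSO, 50 nM, 250 nM from high to low, without overlap between their libraries, for 9 of 10 members in Ku cells, beside 66.7% of active genes, and for 10 of 10 in Cov cells, beside 73.8%.

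**Figure D3:**
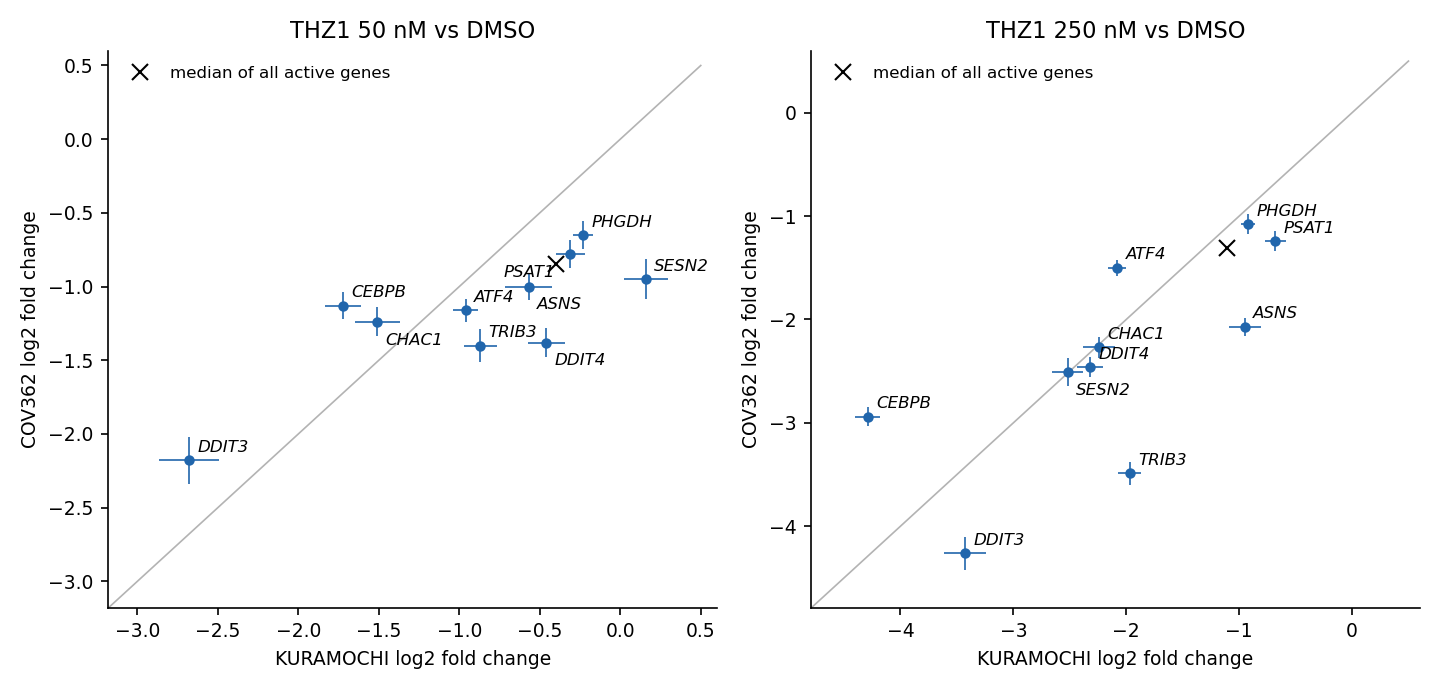
Log2 fold change of FPKM + 1 against DMSO in KURAMOCHI (horizontal) and COV362 (vertical) at 50 nM (left) and 250 nM (right) on the spike-in scale; points are the 10 genes, bars standard errors, the cross the median of active genes and the grey line equal change. At 250 nM CEBPB (-4.29 and -2.94) and TRIB3 (-1.97 and -3.49) lie on opposite sides of the line; differences between the lines were not tested.

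The lines are set side by side without a test. At 250 nM ATF4, DDIT3, CEBPB, TRIB3, SESN2, DDIT4 and CHAC1 lay below the median of active genes in both lines, and PSAT1 and PHGDH above it in both. For ATF4 in Cov cells the side was not stable, since it lay above the median under equal median scaling (0.57 against 0.31), median-of-ratios scaling (0.11 against 0.01) and a pseudocount of 0.1 (-1.51 against -1.55), and level with it at a minimum of 10 FPKM (both -1.50). With no minimum FPKM, where the median over all rows was -0.50 (Ku) and -0.70 (Cov), PSAT1 and PHGDH lay below it in both lines and ASNS below it in Ku cells. DDIT3 differed from the median by -2.32 (Ku) and -2.96 (Cov), and the other differences, in the same order, were -1.41 and -1.20 for SESN2 and -1.21 and -1.15 for DDIT4. They were -1.13 and -0.96 for CHAC1 and 0.19 and 0.23 for PHGDH. TRIB3 was -0.86 from the median in Ku cells and -2.19 in Cov cells. CEBPB was -3.18 from it in Ku cells and -1.63 in Cov cells. ASNS was the only gene on opposite sides at 250 nM, with 58.4% of active genes at a lower log2 fold change in Ku cells and 18.3% in Cov cells. At 50 nM CEBPB was the furthest apart of the 10 relative to those medians, at -1.32 in Ku cells and -0.28 in Cov cells. SESN2 at 50 nM lay on opposite sides, at 0.56 in Ku cells and -0.10 in Cov cells, where it was level with the median without replicate 1 at 50 nM (-0.79 against -0.80).

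**Figure D4:**
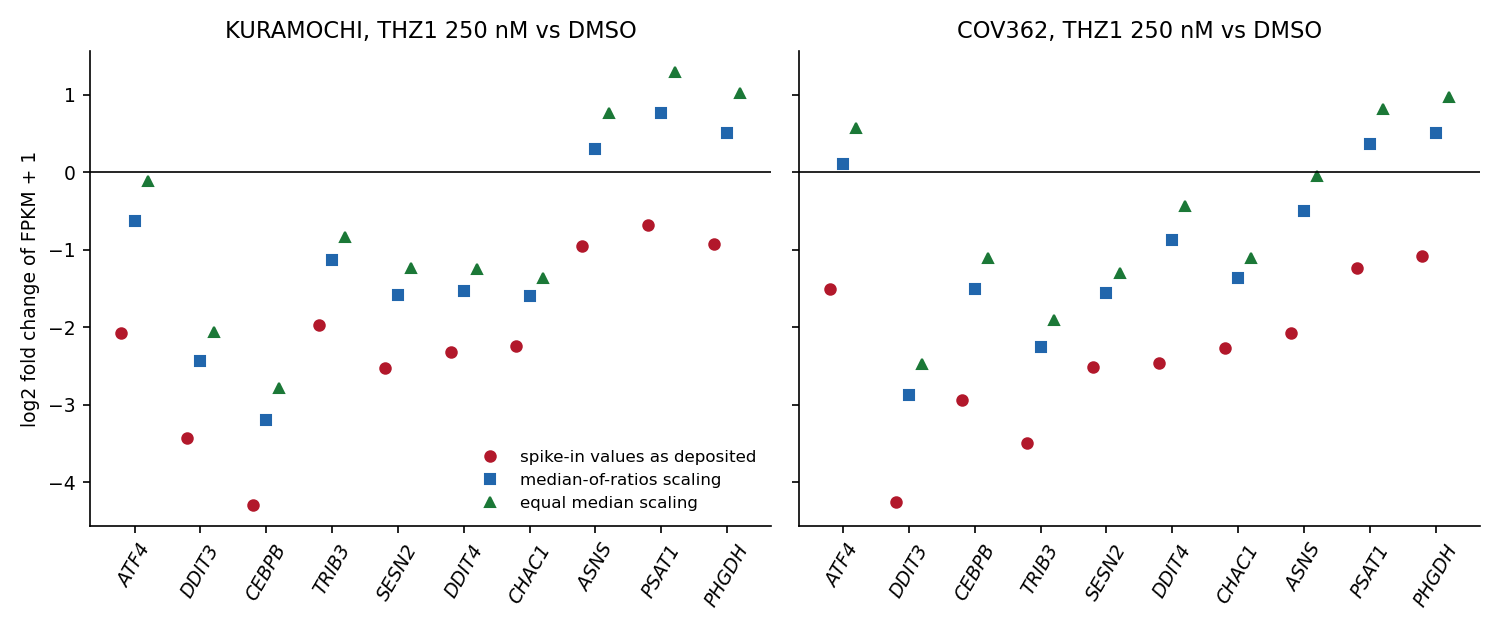
Log2 fold change of FPKM + 1 at 250 nM against DMSO for each gene in KURAMOCHI (left) and COV362 (right) under the deposited spike-in values (red circles), median-of-ratios scaling (blue squares) and equal median scaling (green triangles). DDIT3, CEBPB, TRIB3, SESN2, DDIT4 and CHAC1 stay below 0 under all 3; PSAT1 and PHGDH turn above 0 in both lines, ASNS in Ku cells and ATF4 in Cov cells.

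The calls differed between the scalings, and part of that difference lies with the level of the gene. In Ku cells at 250 nM the abundant ATF4 went from -2.08 to -0.11 under equal median scaling and lost its call, while CHAC1, at low FPKM, went from -2.24 to -1.37 and stayed called. The 5 genes that were called lower at 250 nM under all 3 scalings in each line were DDIT3, CEBPB, TRIB3, SESN2 and CHAC1, beside 6.91% of active genes that met the same condition. Under equal median scaling 6 members were called lower and 2 higher in Ku cells, where 11.6% of active genes were called lower and 26.9% higher. In Cov cells 5 were called lower and 3 higher, beside 11.3% and 26.4%. With the median-of-ratios scaling 7 were called lower and 1 higher in Ku cells, beside 19% and 11.1%, and 6 lower and 0 higher in Cov cells, beside 18.9% and 8.57%. At 50 nM no member was called in Cov cells under either, and CEBPB alone was called lower in Ku cells, at -1.17 (adjusted p 0.000934) under median-of-ratios scaling. The shares of active genes called lower at 50 nM were then 0.147% (equal median) and 0.772% (median-of-ratios) in Cov cells and 0.737% and 2.72% in Ku cells.

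Other genes of the pathway were taken from lists of known function and described by counts and medians. Of 18 active genes for the eIF2 kinases, eIF2, eIF2B and the eIF2 phosphatase, 0 fell in Ku cells at 50 nM and 16 at 250 nM, and 17 and 18 in Cov cells. The shares of all active genes called lower, beside which these and the following counts stand, were 11.3% and 68.6% in Ku cells and 70.5% and 84% in Cov cells. The medians of the 18 eIF2 genes at 250 nM were -1.25 in Ku cells and -1.70 in Cov cells on the spike-in scale, 0.69 and 0.30 under equal median scaling, and 0.18 and -0.15 under median-of-ratios scaling. For these and the following lists, the medians of all active genes were 0.29 (Ku) and 0.31 (Cov) under equal median and 0.00 and 0.01 under median-of-ratios scaling. NCK1, an adaptor that binds the eIF2 phosphatase, changed by -3.13 in Ku cells (32.4 and 28.6 FPKM in DMSO, 2.43 and 2.79 FPKM at 250 nM) and by -3.27 in Cov cells. PPP1R15B, the constitutive eIF2 phosphatase subunit, changed by -3.09 in Ku cells, and PPP1R15A (GADD34), its stress-induced counterpart and an ATF4 target, by -2.80 in Cov cells. The kinase gene EIF2AK1 changed by -1.19 in Cov cells, and EIF2B3 in Ku cells by -0.75 (adjusted p 0.00141, not called). All of these except EIF2B3 fell.

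Of 52 further ATF4 target genes listed, 48 were active. In Ku cells 7 fell at 50 nM and 41 at 250 nM, and in Cov cells 42 and 47, beside the same backgrounds. Their medians were -0.40 and -1.16 in Ku cells and -0.88 and -1.69 in Cov cells, close to those of all active genes in Ku cells and at 50 nM in Cov cells. The 250 nM medians were 0.50 and 0.20 under equal median scaling and 0.06 and -0.23 under median-of-ratios scaling. SLC38A2, an amino acid transporter, had -3.70 in Ku cells, from 56.1 and 46.7 FPKM in DMSO to 2.76 and 3.27 FPKM at 250 nM, and -3.99 in Cov cells, from 183 and 212 FPKM to 12 and 10.9 FPKM. HERPUD1, a component of endoplasmic reticulum associated degradation, had -3.06 and -3.54. At the other end in Ku cells stood ALDH1L2, with -0.17 (adjusted p 0.00498, not called) from only 0.266 and 0.251 FPKM in DMSO. Next to it was CTH, which makes cysteine from cystathionine, with -0.31 (adjusted p 0.0743, not called) and 1.31, called higher, under equal median scaling. In Cov cells this end was held by SLC43A1, an amino acid transporter, with -0.56 (adjusted p 0.00138, not called).

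The neighbouring branches of the stress response are set beside the members in the plot of list medians. Among 22 endoplasmic reticulum chaperone and XBP1/ATF6 branch genes, 1 and 18 fell in Ku cells at 50 nM and 250 nM (background 11.3% and 68.6%) and 19 and 22 in Cov cells (70.5% and 84%). At 250 nM their median was -0.77 in Ku cells, a smaller fall than the median of active genes, and -1.43 in Cov cells, a larger fall, and it was 1.04 and 0.39 under equal median scaling and 0.56 and -0.02 under median-of-ratios scaling. XBP1, the transcription factor of the IRE1 branch, changed by -4.35 in each line, from 81.4 and 70.7 FPKM to 3.11 and 2.45 FPKM in Ku cells. HSP90B1 and PDIA3, abundant folding proteins, were not called in Ku cells, with -0.33 (adjusted p 0.0159) and -0.30 (adjusted p 0.0257). Of 21 C/EBP and CREB/ATF family genes, 3 and 17 fell in Ku cells and 16 and 18 in Cov cells, with medians at 250 nM of -1.44 and -1.60, which were 0.07 and 0.21 under equal median scaling and -0.35 and -0.20 under median-of-ratios scaling. CEBPD, the paralogue of CEBPB, changed by -4.19 in Ku cells. NFE2L2 (NRF2), the oxidative stress factor, changed by -2.69 and -3.25. ATF3, itself an ATF4 target, was not called in Ku cells at 250 nM, at -0.47 (adjusted p 0.0369).

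The list whose medians were closest to those of the members at 250 nM was that of their paralogues. Of 10 active paralogues, 3 and 10 fell in Ku cells (background 11.3% and 68.6%) and 7 and 9 in Cov cells (70.5% and 84%), with medians at 250 nM of -2.30 and -2.07, which were -0.69 and -0.20 under equal median scaling and -1.11 and -0.64 under median-of-ratios scaling. TRIB1 changed by -3.35 and -3.26 and SESN3 by -1.47 and -1.33. In Ku cells TRIB1 was at 15.7 and 13.5 FPKM in DMSO, at 15.7 and 13.9 FPKM at 50 nM and at 0.526 and 0.512 FPKM at 250 nM. Of 18 other serine, one-carbon and asparagine genes, 1 and 12 fell in Ku cells and 12 and 15 in Cov cells, with medians at 250 nM of -0.74 and -1.08, which were 1.04 and 0.78 under equal median scaling and 0.55 and 0.40 under median-of-ratios scaling. MTHFD2, a mitochondrial one-carbon enzyme, changed by -1.90 in Cov cells. Of 31 mTORC1 genes and regulators, 4 and 28 fell in Ku cells and 23 and 31 in Cov cells, with medians at 250 nM of -1.37 and -1.33, which were 0.28 and 0.39 under equal median scaling and -0.17 and 0.00 under median-of-ratios scaling. TXNIP changed by -3.40 and -2.71, and RHEB, the activator of mTORC1, by -0.62 (adjusted p 0.00101, not called) in Ku cells. No gene of these lists was called higher on the spike-in scale, and some genes stand in more than 1 list.

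**Figure D5:**
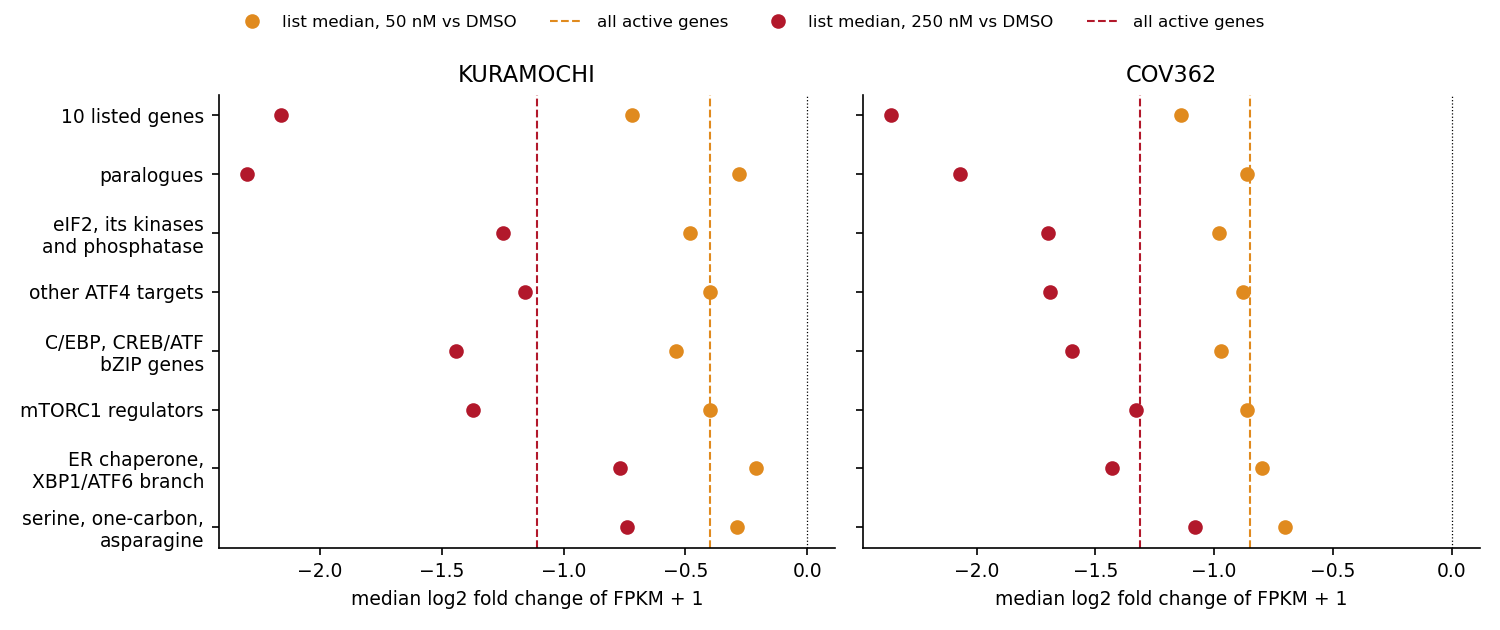
Median log2 fold change of FPKM + 1 over the active genes of each list (points) against DMSO at 50 nM (orange) and 250 nM (red) in KURAMOCHI and COV362 on the spike-in scale; dashed lines are medians of all 14251 active genes. The 10 listed genes (-2.16 and -2.36) and their paralogues (-2.30 and -2.07) lie lowest at 250 nM on this scale.

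Genes most like ATF4 and DDIT3 were found by the root mean square difference over the 8 treated libraries of both lines, each as log2(FPKM + 1) minus the DMSO mean of its line. Nearest to ATF4 were FAM131A (0.0852), TMEM39B (0.0909) and ARHGAP23 (0.0949). At 250 nM FAM131A changed by -2.05 in Ku cells and -1.63 in Cov cells, beside -2.08 and -1.50 for ATF4. Nearest to DDIT3 were CCDC71 (0.332), HPS6 (0.423) and EFNA4 (0.452), all further off than the neighbours of ATF4. CCDC71 changed by -3.86 in Ku cells and -4.12 in Cov cells, beside -3.43 and -4.26 for DDIT3. The members were not each other's nearest genes. The closest pair, PSAT1 and PHGDH, differed by 0.184, with PHGDH 877th in order among all genes compared with PSAT1. The member nearest to ATF4 was CHAC1 (0.488, 2826th in order), and that nearest to DDIT3 was CEBPB (1.08, 289th). These are descriptions of likeness over 8 libraries that share a scale.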

How the data were processed

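RNA-seq was performed by the authors on 12 libraries, 2 replicates of each line and condition. Per the methods, TruSeq stranded libraries were sequenced on an Illumina instrument, reads were aligned to hg19 with HiSat, and the authors deposited FPKM from cuffquant and cuffnorm, normalized to ERCC spike-ins, with the lines in separate tables. Tool versions and the gene annotation are not given in the sources used here. Depth is unknown, and edgeR, which needs counts, was not used.

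ERCC rows (92) were removed. For each line (3 groups of 2 libraries), limma 3.58.1 (R 4.3.3) was run on log2(FPKM + 1), with eBayes and a mean-variance trend. Tests are two-sided, adjusted over the active genes, and measure the spread between the deposited replicates. Files were loaded by the R package data.table (version 1.17.8), and plots came from matplotlib 3.10.9 in Python 3.11.15. GRCh37 positions are from GENCODE and promoters from RefSeq, which held windows for all 10 genes.

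The members, the other lists and the markers were chosen with earlier results of these data known. Named from each other list were the active genes with the highest and lowest log2 fold change at 250 nM, up to 2 each way per line, of which some are printed, and the 3 genes most like ATF4 and DDIT3. Genes outside this rule (MARS, MBD6) were named for overlapping DDIT3. Alternatives were a pseudocount of 0.1, minima of 10 FPKM, on condition means and none, both scalings, only the compared groups, the replicate block, no trend, a looser adjusted p of 0.05, a stricter log2 fold change of 1 and each library left out.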

Additional observations from a re-analysis of the deposited data

Results flagged for a closer look

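SESN2 at 50 nM THZ1 was the only member whose libraries lay on opposite sides of the DMSO mean in the 2 lines. In Ku cells both 50 nM libraries lay above the DMSO mean, with a log2 fold change of 0.16 that was not called (adjusted p 0.353 by limma) and with libraries that overlapped those of DMSO, and in Cov cells both lay below it, with -0.95, called lower. The signs were no longer opposite under equal median scaling (0.76 in Ku cells, 0.04 in Cov cells, neither called), and under median-of-ratios scaling the values were 0.64 and -0.11, neither called. The difference between the lines was not tested, since their tables were normalized separately. With groups of 2 libraries no single library could be examined as an outlier.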

How the results depend on the processing

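Every change of sign came from the 2 scalings that remove the common fall. The members called lower became 0, 6 and 3 in Ku cells (50 nM, 250 nM, 250 nM against 50 nM) and 0, 5 and 2 in Cov cells under equal median scaling, and 1, 7 and 4, then 0, 6 and 3, under median-of-ratios scaling. The shares of active genes called lower were 0.737%, 11.6% and 6.55%, then 0.147%, 11.3% and 4.95%, under the first and 2.72%, 19% and 11.1%, then 0.772%, 18.9% and 7.92%, under the second. Those called higher at 250 nM became 2 in Ku and 3 in Cov cells under the first and 1 in Ku cells under the second. Under equal median scaling the sign turned in Ku cells for ASNS 0.05, PSAT1 0.39, PHGDH 0.46 and DDIT4 0.11 at 50 nM, for ASNS 0.76, PSAT1 1.29 and PHGDH 1.03 at 250 nM, and for ATF4 0.14, ASNS 0.70, PSAT1 0.90 and PHGDH 0.57 between the doses. In Cov cells it turned at 50 nM for the median of the members 0.04, ATF4 0.06, ASNS 0.20, PSAT1 0.44, PHGDH 0.56, SESN2 0.04 and CEBPB 0.04, at 250 nM for ATF4 0.57, PSAT1 0.82 and PHGDH 0.97, and between the doses for ATF4 0.51, PSAT1 0.38 and PHGDH 0.41. Under median-of-ratios scaling it turned in Ku cells for PSAT1 0.24, PHGDH 0.32 and DDIT4 0.00 at 50 nM, ASNS 0.30, PSAT1 0.77 and PHGDH 0.51 at 250 nM, and ASNS 0.37, PSAT1 0.53 and PHGDH 0.20 between the doses. In Cov cells these were ASNS 0.01, PSAT1 0.25 and PHGDH 0.37 at 50 nM, ATF4 0.11, PSAT1 0.36 and PHGDH 0.51 at 250 nM, and ATF4 0.24, PSAT1 0.12 and PHGDH 0.15 between the doses.

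Outside the scalings no member's log2 fold change turned sign in 894 repeats, but many of these could not turn it. The minima, the thresholds, the replicate block, the trend and the choice of groups in the fit leave the value itself unchanged. Only the pseudocount of 0.1 and leaving out a library of a compared group can move it. Of the 894 repeats, 803 kept their side of the threshold. The 4 members called lower at 50 nM in Ku cells became 0 without a minimum (0.0127% of genes tested) and 0 with only the compared groups in the fit (0.0632%), and a log2 fold change beyond 1 left 6 of 10 at 50 nM in Cov cells (35.5%). Without the trend 3 members were called lower at 50 nM in Ku cells (8.13%). ATF4 (adjusted p 0.00115) and CHAC1 (0.00108) were then lost and TRIB3 (0.000955) was gained. Leaving out each library gave 0 to 0, 8 to 9 and 2 to 6 members called lower in Ku cells and 7 to 10, 10 to 10 and 6 to 7 in Cov cells, with 0 called higher throughout. The shares of active genes were 0.0421% to 1.01%, 42.8% to 63.8% and 5.77% to 32.7%, then 31.8% to 69.9%, 74.3% to 86.7% and 10.9% to 28.1%. The minimum of 10 FPKM removed CHAC1. Same-numbered replicates did not deviate together (correlations of -0.0703 to 0.0282 across active genes), and with the number as a replicate block 3, 9 and 6 members were called lower in Ku cells (6.94%, 66.6% and 34.7% of active genes) and 9, 10 and 7 in Cov cells (51%, 78.6% and 7.93%). With unknown depth, values near the floor carry no counting error.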

Other observations

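CTH, the cystathionine cleaving enzyme of cysteine synthesis and a listed ATF4 target, stood apart at 50 nM in Ku cells, and was singled out here after its values were seen. It was at 5.16 and 4.91 FPKM in DMSO, 13.9 and 12 FPKM at 50 nM and 4.23 and 3.52 FPKM at 250 nM. Both 50 nM libraries lay above all others. The log2 fold change at 50 nM was 1.20 (SE 0.139, adjusted p 0.00114 by limma), just past the threshold and so not called. It was 1.73 (adjusted p 0.00126, not called) under equal median scaling and 1.63 (adjusted p 0.000807, called higher) under median-of-ratios scaling. On the spike-in scale the step from 50 nM to 250 nM was -1.51 (adjusted p 0.000231), called lower, but -0.42 and -0.75, not called, under the same scalings. In Cov cells the change at 50 nM was -0.30 (adjusted p 0.0532, not called), which turned to 0.64 and 0.50, not called, and the difference between the lines was not tested.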
